A study of Mus musculus with 4 samples.

Results

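The Igf2-H19-Nctc1 locus is a stretch of mouse chromosome 7 chosen for its closeness to the deleted muscle enhancer. Whether the deleted segment lies inside this stretch was not determined. The locus was examined as all islands of trimethylated histone H3 lysine 36 (H3K36me3) that overlap 149680000 to 149880000 (mm9). It held 4 of the 69798 islands of the mutant list and 7 of the 58326 islands of the wild-type list. The members by gene were 6: Tnnt3, Mrpl23, Nctc1, H19, Igf2 and Ins2, in this order along the chromosome. An island is a region that the authors' caller found enriched in chromatin immunoprecipitation and sequencing (ChIP-seq) reads, here in 200 bp windows with gaps of up to 600 bp bridged.

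The mutant group is 1 H3K36me3 library from FVB myocytes with a deletion of a muscle-specific H19/Igf2 enhancer, and the wild-type group is 1 such library from FVB myocytes without it. In both, myoblasts came from skeletal muscle of mice at postnatal day 4, went through 5 to 10 passages and were kept without growth factors for 24 hours before harvest. The labels describe each genotype as a line and give neither the limits of the deletion, nor whether 1 or both copies carry it, nor how many animals were used. With 1 library per genotype there was no replicate spread, so every value below describes these libraries, with no test and no p-value.

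H3K36me3 is deposited on nucleosomes behind elongating RNA polymerase II, and it accumulates over the bodies of transcribed genes, usually more toward their 3′ ends. Igf2 encodes insulin-like growth factor 2 and is expressed from the paternal copy, whereas H19, a long noncoding RNA, is expressed from the maternal copy. A methylated control region upstream of H19 decides which of the pair can use the shared enhancers beyond H19. Nctc1 is a noncoding RNA gene that neighbours the muscle enhancer, Mrpl23 encodes a mitochondrial ribosomal protein, Tnnt3 encodes fast skeletal muscle troponin T, and Ins2 encodes an insulin that is made in the pancreas. Reads from both parental copies are pooled in an island.

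Across the whole 200 kb, islands covered 23.6 kb (11.8%) in the mutant and 49.8 kb (24.9%) in the wild type, a ratio of 0.474. Nearly all of the mutant cover, 23.4 kb, was also covered in the wild type. The difference of 26.2 kb was not spread evenly. It was small over Tnnt3, larger in the stretch with Mrpl23 and Nctc1, and from H19 onward the mutant had no island at all, against 17 kb in the wild type. Over the full lists the same ratio of covered length was 0.967, and on chromosome 7 it was 0.987. The mutant library was the deeper one, at 3.11 reads per window against 2.82 in the wild type as solved from the island scores, and the mutant list also reached lower island scores, with a minimum of 22.6 against 30.3 in the wild type.

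**Figure D1:**
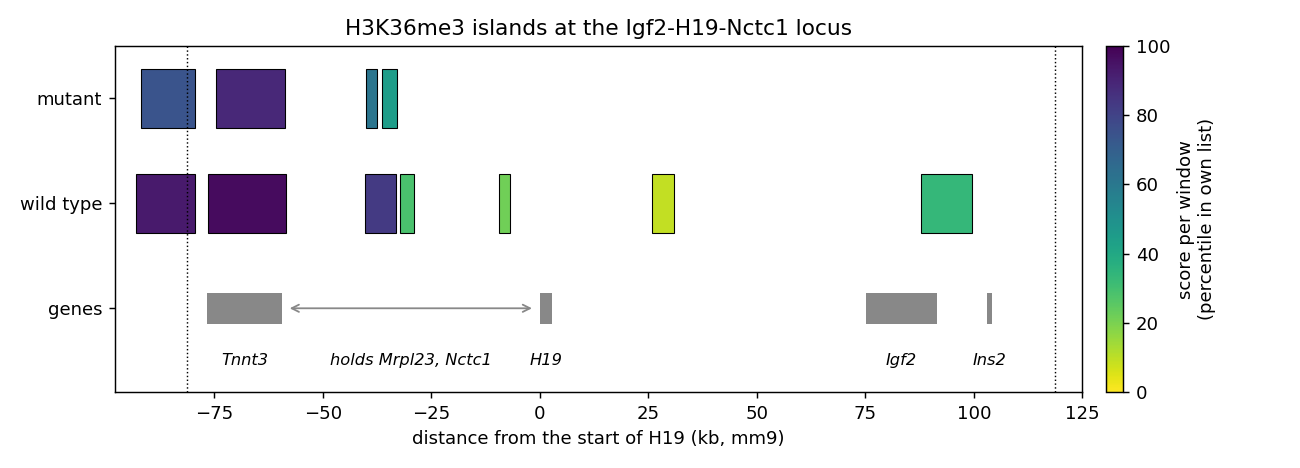
Islands of the mutant (upper row) and the wild type (middle row) by distance from the start of H19 in kb, with the 4 gene bodies whose mm9 limits were used (grey) and the limits of the interval (dotted). Colour gives the percentile of each island's score per window within its own list. The mutant row is empty from 33 kb before H19 to the end of the interval.

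The Tnnt3 gene body (149684700 to 149701900) was marked along most of its length in both genotypes. A single mutant island at 149686801 to 149702600 covered 15.1 kb of it (87.8%), and a single wild-type island at 149685001 to 149702800 covered 16.9 kb (98.3%). Both ended within 1 kb past the gene. They began at different places, 2.1 kb inside the gene's first limit in the mutant and 0.3 kb inside it in the wild type. The island is strong in either list: its deposited score of 535 stood at the 97.9th percentile of mutant islands, and the score of 788 stood at the 99.1st percentile of wild-type islands. Tnnt3 is thus a muscle gene that carried the mark in both cultures. Other markers of muscle cells were not analysed here.

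The Tnnt3 island was nevertheless the less dense one in the mutant. An island score sums the evidence over windows, so it was divided by the number of windows, and the ratio of these averages was set against all pairs of islands of at least 10 kb that overlap each other and nothing else. The Tnnt3 pair had 6.77 score units per window in the mutant and 8.86 in the wild type, a ratio of 0.765. The median ratio over the 1516 pairs was 1.06, with 5% of pairs below 0.768 and 5% above 1.53, and 5.01% of pairs had a ratio at or below that of Tnnt3. The island just before Tnnt3 behaved alike. It spanned 149669401 to 149682000 in the mutant, with 5.21 score units per window, and 149668201 to 149682000 in the wild type, with 7.09. Its ratio of 0.735 was reached or undercut by 3.89% of pairs. Only its last 2 kb lie inside the interval, in both genotypes. These percentages describe where the pairs stand in these libraries. A score depends on depth and is not proportional to reads, so the ratios are not fold changes of the mark.

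The stretch from Tnnt3 to H19 is 59.5 kb long and holds Mrpl23 and Nctc1. It was not divided between them, since mm9 limits were given for neither gene and no coordinate was converted from GRCm38. Islands covered 6.5 kb (10.9%) of it in the mutant and 13.9 kb (23.4%) in the wild type, of which 0.7 kb and 0.9 kb were the ends of the Tnnt3 islands. In the mutant, islands lay at 149721401 to 149723800 (2.4 kb, score 53.3) and 149725001 to 149728400 (3.4 kb, score 63.6). In the wild type, 1 longer island at 149721001 to 149728200 (7.2 kb, score 198) took their place, so marked chromatin was present there in both genotypes and was broken by a gap of 1.2 kb in the mutant.

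The wild type had 2 further islands in this stretch, at 149729201 to 149732400 (3.2 kb, score 46.4) and at 149752001 to 149754600 (2.6 kb, score 34.8), and no part of either was covered in the mutant. Both are weak: 31.9% and 11.2% of wild-type islands had the same score or less. The first begins 1 kb past the long wild-type island and 0.8 kb past the last mutant island. The second ends 6.8 kb before H19. Weak islands often lack a counterpart in these lists: with the wild-type list cut into score deciles, 23.7% of islands in the decile of the first and 38.5% in that of the second had no mutant counterpart. Among the upper 50% of each list by score, which leaves both weak islands out, the stretch was covered to 6.5 kb in the mutant and 8.1 kb in the wild type. The enhancer itself was not placed on mm9 here. Deleted DNA gives no reads, so inside the deleted segment a missing island and missing DNA cannot be told apart.

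H19 itself carried no island in either genotype. Its body (149761400 to 149764100) is 2.7 kb long and was covered to 0% in the mutant and to 0% in the wild type. The caller can return islands of this size, as the shortest in either list was 200 bp. Scores add up over windows, however, so a short gene needs denser marking than a long one to reach the lowest island score. The files hold no reads outside islands, so a level of the mark below the caller's limit could not be measured. The nearest mutant island ended 33 kb before H19. The nearest wild-type islands were the one that ends 6.8 kb before it and one that begins 23.1 kb past it.

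Between H19 and Igf2, a stretch of 72.5 kb, the mutant had no island and the wild type had 1, at 149787201 to 149792400. It was 5.2 kb long with a score of 57.6, or 2.21 score units per window, which 9.37% of wild-type islands matched or undercut. In its score decile, 16.9% of wild-type islands lacked a mutant counterpart. The GRCm38 gene table lists 1 further gene after H19 and its microRNA gene Mir675 and before Igf2, the noncoding Gm33148. Whether the island lies over it was not analysed here.

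**Figure D2:**
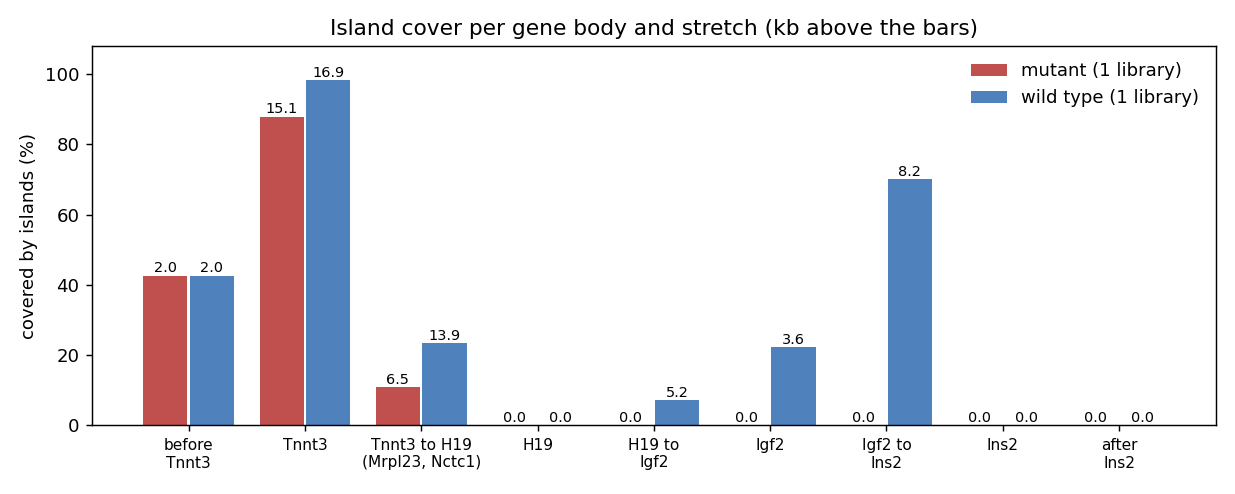
Percentage of each gene body and stretch covered by islands, in order along the chromosome, for the mutant (left bars) and the wild type (right bars), with the covered kb above each bar and 1 library per genotype. Tnnt3 stands at 87.8% and 98.3%, whereas the stretches from H19 to Ins2 have 0 kb in the mutant and up to 8.2 kb in the wild type.

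The longest difference lay at the 5′ end of Igf2. The mutant had no island over Igf2 (149836600 to 149852800) or between Igf2 and Ins2. The wild type had a single island at 149849201 to 149861000, which is 11.8 kb long. It covered 3.6 kb of the gene body (22.2%) and 8.2 kb (70.1%) of the 11.7 kb between Igf2 and Ins2. Igf2 runs on the minus strand in the RefSeq promoter table, so the covered part of the body is its 5′ end, and most of the island lies upstream of the gene. The remaining body, including the 3′ end, was not covered in either genotype. The same table of genes places Igf2os, a noncoding antisense gene, across the 5′ part of Igf2 and 3.54 kb beyond it (distance in GRCm38). ChIP-seq islands carry no strand, so the mark over Igf2 and over Igf2os cannot be told apart where they overlap. The island reaches 8.2 kb past Igf2, so if the 3.54 kb also holds on mm9 its outer part lies beyond both genes.

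RefSeq lists 4 starts of Igf2 with a promoter sequence, each given as 250 bases before to 50 bases after the start. The most upstream start is the 5′ limit of the gene, which lies inside the wild-type island, and its promoter is shown first. The next start lies 5.545 kb further into the gene and the other two lie 8.01 and 9.32 kb (GRCm38 distances). The island reaches 3.6 kb into the gene, so if these distances also hold on mm9 the 3 inner starts lie outside it. The second sequence is the nearest of those. Both are on the minus strand of GRCm38.p6, written 5′ to 3′, and capitals mark E-boxes (CANNTG, the same on either strand), the motif bound by myogenic factors such as MyoD. The coordinates are GRCm38 and were not converted, so they cannot be read directly against the mm9 positions of the islands.
Igf2 upstream start, chr7:142666767-142667066: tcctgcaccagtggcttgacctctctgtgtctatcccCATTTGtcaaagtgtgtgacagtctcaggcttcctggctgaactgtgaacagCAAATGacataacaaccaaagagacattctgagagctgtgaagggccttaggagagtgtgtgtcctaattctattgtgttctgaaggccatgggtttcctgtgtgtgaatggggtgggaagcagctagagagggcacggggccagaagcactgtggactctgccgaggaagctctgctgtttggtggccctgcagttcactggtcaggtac
Igf2 second start, chr7:142661222-142661521: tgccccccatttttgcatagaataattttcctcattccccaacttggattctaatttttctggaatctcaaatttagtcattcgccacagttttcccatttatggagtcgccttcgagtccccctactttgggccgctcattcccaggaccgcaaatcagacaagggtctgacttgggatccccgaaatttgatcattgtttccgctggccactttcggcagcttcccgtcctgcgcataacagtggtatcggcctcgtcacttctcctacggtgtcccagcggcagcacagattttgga
The upstream promoter holds 2 E-boxes and 2 CpG dinucleotides, and the second holds 0 E-boxes and 14 CpG dinucleotides. Among 32544 RefSeq promoter sequences of the same length, 72.3% hold at least 1 E-box and the median number of CpG dinucleotides is 7. An E-box match describes these letters only. Promoters of 3 of the 6 genes (Igf2, Mrpl23 and Nctc1) are in the table.

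By its total score of 180, the Igf2 island stood at the 85.3rd percentile of the wild-type list, and by length at the 92.8th. It was long rather than dense. Its 3.06 score units per window compare with a median of 3.62 over all wild-type islands and 4.67 over wild-type islands of at least 10 kb, of which 9.32% were as sparse or sparser. Wild-type islands of similar length or score seldom lacked a counterpart. The score decile and the sparse class below were set by this island's own values, so the shares are a description only. The share without one was 18% over all wild-type islands, 6.46% over those of at least 5 kb and 0.847% (52 of 6136) over those of at least 10 kb. In its score decile the share was 1.42%, and among islands of at least 10 kb that were as sparse or sparser it was 3.15% (18 of 572). Of the 52, 24 were as long as the Igf2 island or longer, so it was not the most extreme of them, and 2 lay on chromosome 7. In the opposite direction, 3.31% of mutant islands of at least 5 kb and 0.578% of those of at least 10 kb were without a wild-type counterpart.

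Ins2 (149864500 to 149865700) had no island in either genotype, and neither did the 14.3 kb from Ins2 to the end of the interval. The wild-type Igf2 island ended 3.5 kb before Ins2. As at H19, the files cannot separate an unmarked gene from a mark below the limit of the caller.

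In all, 0 of the 4 mutant islands of the locus lacked a counterpart, against 4 of the 7 wild-type islands. Among the upper 50% of each list by score the numbers were 0 of 4 mutant islands and 1 of 4 wild-type islands. That 1 was the island at Igf2. Each list was cut at its own median score, which was higher in the wild type. The wild-type island of score 57.6 fell below its cut, whereas a mutant island of score 53.3 was kept. Over the full lists 25.7% of mutant islands and 18% of wild-type islands lacked a counterpart. The 4 wild-type islands lie within a run of 232.2 kb without any mutant island, from 149728401 to 149960600, and they add up to 22.8 kb. Runs of this length or longer were 2.69% of the gaps between mutant islands on the autosomes by number, but 53.8% of the summed length of those gaps, so most unmarked autosomal sequence lies in runs at least as long.

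The locus was then set against other stretches of the same length, stepped by 20 kb along the 19 autosomes. Of 57886 stretches of 200 kb that were at least 5% covered in the wild type, 8.74% had at most 50% of that cover in the mutant, as the locus did with its ratio of 0.474. The opposite, at least 5% in the mutant and at most 50% of that in the wild type, held for 5.5% of stretches. A ratio as low as that of the locus or lower was seen in 7.96%, and a loss in covered length as large as that of the locus or larger was seen in 3.82%. On chromosome 7 alone the first call was made in 6.71%. Neighbouring stretches overlap and are not independent. The size of the loss over the locus was thus uncommon but not rare in these lists, and the ratio stood close to the 50% limit. It rose to 0.622 when 50 kb were added on each side, and to 0.608 among the upper 50% of each list by score, which both end the call.

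The part from H19 to the end of the interval, 118.6 kb, was judged by another measure, the absence of any mutant island. Its shares are therefore not ranked against those of the whole interval. Its cover was 0% in the mutant, against 14.3% in the wild type. Of all autosomal stretches of that length, 2.33% of those at least 5% covered in the wild type, and 0.734% of those at least 10% covered, had no mutant island. The same absence in the wild type was found for 1.63% of stretches at least 5% covered in the mutant. This reverse share was not computed at the 10% minimum. This part was singled out after its values were seen, so its place among other stretches is a description only.

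**Figure D3:**
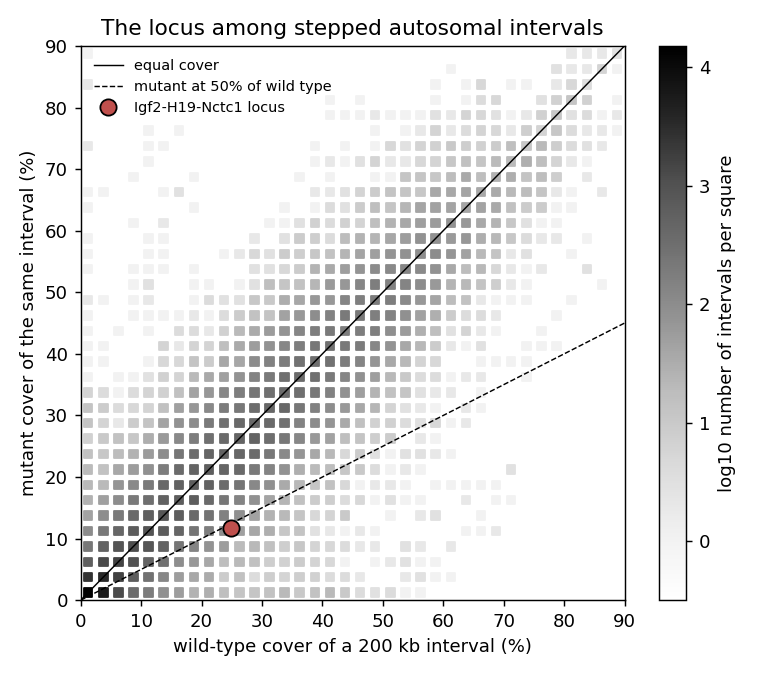
Mutant against wild-type island cover, in percent, of all stepped 200 kb stretches of the autosomes with an island in either list (grey squares, darker for more stretches, log10 scale), with the locus as a red point. The locus, at 11.8% in the mutant and 24.9% in the wild type, sits just under the dashed line at which mutant cover is 50% of wild-type cover.

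The difference was smaller on both sides of the locus. In the 400 kb before it, islands covered 32.8 kb in the mutant and 41.6 kb in the wild type, a ratio of 0.788. In the 400 kb after it they covered 30.6 kb in the mutant and 33.4 kb in the wild type, a ratio of 0.916. In 20 kb bins of the locus itself, mutant cover was lower in 7 of 10 bins and higher in 0, and the other 3 bins were empty in both. In the 40 bins of the flanks it was higher in 4 and lower in 6, and 29 were empty in both. Of the bins covered in the wild type, 4 of 7 inside the locus were empty in the mutant. In the flanks this held for 2 of 9, made up of 2 of 5 before the locus and 0 of 4 after it. The nearest islands past the locus were present in both genotypes: the bin that starts 180 kb from the centre held 5.6 kb in the mutant and 3.2 kb in the wild type.

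**Figure D4:**
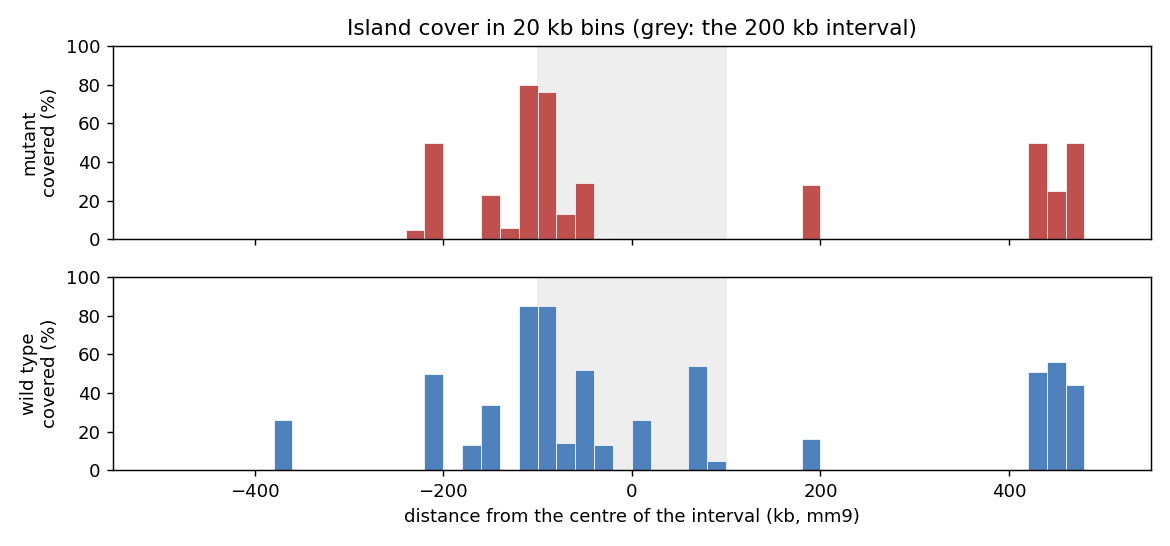
Island cover in 20 kb bins, in percent, out to 500 kb on each side of the centre of the locus, for the mutant (upper panel) and the wild type (lower panel), with the 200 kb interval in grey. Bins around Tnnt3 are high in both, 76% in the mutant and 85% in the wild type, whereas 4 bins further right in the grey area are filled in the wild type alone.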

How the data were processed

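H3K36me3 was measured by ChIP-seq in myocytes of 2 genotypes, with libraries made from 10 ng of DNA. Of 4 samples, only the 2 H3K36me3 libraries entered the analysis, and input DNA was not analysed here. The authors deposited 1 list per library, with the position and score of every island. Reads were handled with Bowtie 1.0.0 (an aligner) and SICER 1.1 (an island caller) on build mm9, per the submitters' processing notes. Window and gap follow from the deposited lists' names. Whether input was subtracted or duplicates were removed: not given in the sources used here. A score adds the negative natural log of Poisson probabilities over windows, so it grows with depth and length. Read totals are not in the lists, and depth was solved from the scores of 14 mutant and 8 wild-type islands of 1 window.

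Cover was computed per base with Python 3.11.15, numpy 2.4.6, pandas 2.3.3 and scipy 1.17.1, and figures with matplotlib 3.10.9. A counterpart is an island with at least 1 bp covered in the other list. Gene limits of Tnnt3, H19, Igf2 and Ins2 on mm9 are rounded to 100 bp and were set with the choice of the locus. All islands of the interval and all 6 genes are named. Members, limits and lists were chosen with earlier results of these data known. Gene order and promoters come from RefSeq on GRCm38.p6, in which 6 of 6 symbols matched; no coordinate was converted. The depth solution was tested on simulated scores. Counterparts and stepped intervals were tested on the wild-type list with islands removed, and cover was tested against a count base by base. Intervals used to judge the alternatives come from exact binomial 95% intervals that treat windows, bins, stretches or islands as independent. For cover differences, the opposite limits of the mutant and wild-type intervals were subtracted. Such a range is wider than a 95% interval of the difference, so more values stay inside it. Windows of the same island and overlapping stretches are not independent, so the intervals only set a scale for calling a value moved. The alternatives were minimum length, score, joining, limits and overlap.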

Additional observations from a re-analysis of the deposited data

How the results depend on the processing

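Of 72 alternative values, 59 stayed close to the value as deposited and 13 moved beyond their binomial range or by more than 1.5 times. Many of the 59 were 0 in every setting, such as the cover differences over H19 and Ins2, and say little about stability. None changed direction, but a change could be scored only for cover differences other than 0. Keeping the upper 50% of each list by score removed the 3 weaker wild-type islands. Of wild-type islands without a counterpart, 1 was left, that at Igf2. The mutant minus wild-type difference over the interval was then -7.6 percentage points (-13.1 as deposited). From Tnnt3 to H19 it was -2.69 (-12.4), and from H19 to Igf2 it was 0 (-7.17). The median score used as the cut was higher in the wild type than in the mutant. The wild-type island between H19 and Igf2 (score 57.6) was thus removed, whereas a mutant island of score 53.3 was kept. Islands of at least 2 kb and lists of equal covered length gave the same covered lengths as the full lists, 23.6 kb in the mutant and 49.8 kb in the wild type, and joining gave 24.8 and 50.8 kb. Stretches called lower and higher in the mutant were 5.67% and 3.78% with a 10% minimum, 15.2% and 8.44% with 100 kb stretches, and 7.21% and 5.24% without chromosomes 14 and 15 (8.74% and 5.5% as deposited). When an island within 2 kb also counted, wild-type islands without a counterpart were 15.04% of all, 14.5% of those of at least 2 kb and 5.6% of those of at least 5 kb, and at the locus they were 3 in place of 4. Joining islands within 2 kb also gave 3, of 6 wild-type islands. No paired analysis was possible because there was 1 library per genotype, and for the same reason no library could be left out. How depth limits the weak islands was not tested. The lists hold no reads, so no level below the caller's limit can be given for H19, Ins2 or the mutant Igf2.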
